A study of Mus musculus with 4 samples.

Results

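The genes described here are 10 mouse genes that control the joining, the division and the removal of mitochondria, namely Mfn1, Mfn2 and Opa1 (fusion), Dnm1l, Fis1 and Mff (fission), and Pink1, Bnip3, Bnip3l and Fundc1 (mitophagy). They were taken by name from a count table of 22298 genes, after its Ensembl identifiers had been matched to gene symbols, and 10 of 10 were found. RNA-seq was performed on fetal brown adipose tissue (BAT) at E18.5, with 2 libraries from fetuses of dams that drank tap water (control) and 2 libraries from fetuses of dams that drank 20% (w/v) fructose water during pregnancy (fructose). The strain is C57BL/6 by the labels and C57BL/6J by the study's methods, and the labels give all fetuses as male. The sources used here do not state how many fetuses or litters stand behind a library, so the p-values measure only the spread between these libraries, which may be technical. The comparison asks how the RNA of these genes in fetal BAT differed with the drink of the dam.

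Mitochondria form a network that is remodelled by GTPases. MFN1 and MFN2 join the outer membranes of neighbouring mitochondria and OPA1 joins the inner membranes, whereas DRP1, the product of Dnm1l, is recruited from the cytosol by adaptors such as MFF and FIS1 and constricts the organelle until it divides. Damaged or surplus mitochondria are removed by mitophagy, either through the kinase PINK1, which marks them for ubiquitin tagging, or through receptors of the outer membrane (BNIP3, NIX encoded by Bnip3l, and FUNDC1) that bind the autophagosome directly. Brown adipocytes are packed with mitochondria, which fragment when the cell is stimulated to make heat, and mitophagy is known to clear mitochondria when brown fat loses its thermogenic state.

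Of the 10 genes, 9 had at least 1 promoter in the RefSeq table (GRCm38.p6), with 14 promoters in all, each covering 250 bases before to 50 bases after a transcription start. The promoters were searched on both strands, overlapping matches included, for the core of the site of hypoxia-inducible factors (ACGTG or GCGTG), the half-site of estrogen-related receptors (AAGGTCA) and the core of the NRF1 site (GCATGCGC). Bnip3 and Bnip3l are textbook targets of HIF-1, and NRF1 and the estrogen-related receptors are known regulators of nuclear genes for mitochondria. The hypoxia core was in the promoters of 5 of the 9 genes (Pink1, Mfn2, Fis1, Bnip3 and Dnm1l) and in those of 46.7% of all 27025 genes in the table. The estrogen-related receptor half-site was in none of the 9 and in 5.38% of all genes, and the NRF1 core was in 1 of the 9 (Opa1) and in 3.05% of all genes. The Bnip3 promoter held 5 matches of the hypoxia core at 4 places, since the letters CACGTG match once on each strand. Counted in the same way, 5 matches were reached or passed by 546 of all 32851 promoters (1.66%). The GC content of the Bnip3 promoter was 71.7%, and the share was not computed among promoters of like GC content. The stretch before the Bnip3 start is shown because Bnip3 had the most matches among the 9 genes and was among the genes called lower, and the stretch before the Opa1 start because it was the only one of the 14 promoters with the NRF1 core, matched once on each strand in overlapping letters. Capitals mark the matches, which in Bnip3 lie 117 to 35 bases before the start (chr7:138909507-138909653, minus strand) and in Opa1 at 59 bases before it (chr16:29579245-29579314, plus strand). A match of letters is a description of the window and was not measured as a bound site.
Bnip3: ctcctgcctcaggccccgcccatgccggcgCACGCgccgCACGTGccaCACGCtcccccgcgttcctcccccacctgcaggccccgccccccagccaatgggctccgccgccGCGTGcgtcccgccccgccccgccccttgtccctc
Opa1: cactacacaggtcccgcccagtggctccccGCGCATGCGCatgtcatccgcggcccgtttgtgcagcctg

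Library totals were 18542897 to 23645147 counts, with 14859 to 15411 genes detected. The brown fat label was borne out by Ucp1, at 9606 to 12425 CPM (counts scaled to the library total, after TMM scaling) in all 4 libraries. Cidea was at 3236 to 3343 CPM, Cox7a1 at 551 to 757 CPM and Cox8b at 439 to 684 CPM. Prdm16, Ppargc1a, Elovl3 and Dio2 stood far below these, such as Dio2 at 4.43 to 9.06 CPM. Of 8 brown fat markers, Ppargc1a (log2 fold change 1.16) and Elovl3 (0.79) were called higher. Cox8b (-0.44) and Cox7a1 (-0.36) were called lower. The label of sex was not borne out in 1 group: 4 genes of the Y chromosome (Uty, Kdm5d, Ddx3y and Eif2s3y) summed to 422 and 390 counts in the control libraries and to 0 in the libraries labelled male of the fructose group, where 3 counts would correspond to 0.134 and 0.127 CPM. Fetal sex and the drink of the dam therefore cannot be told apart in any value below. Markers of other tissues also moved with the groups. Skeletal muscle markers summed to 293 and 377 CPM in control and 829 and 616 CPM in fructose (9 of 10 genes called higher), erythroid markers to 19205 and 15294 CPM against 11766 and 12142 CPM (5 of 8 called lower), and adipocyte markers to 13534 and 12572 CPM against 11536 and 11164 CPM (3 of 6 called lower). No endothelial or macrophage marker was called (4 genes each). Of all tested genes 15.5% were called higher and 10.7% lower. With the trends of the fold change with transcript length and GC content removed, these shares were 4.73% and 2.74%. All 10 muscle markers were then called higher, but 0 of 8 erythroid and 0 of 6 adipocyte markers were called. The medians of these 3 lists were then 1.64, -0.073 and -0.033. Among the brown fat markers 2 were then called higher and none lower. Of the markers of tissues and cell types, 1 was at 0 in a library, the erythroid gene Epb42 in fructose 1. The part of these shifts in the results was not tested, and in bulk tissue fewer cells of a type cannot be told apart from less RNA per cell.

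The 10 genes split in both directions with the fructose drink. Dnm1l, Mfn1 and Opa1 were higher, Fis1 and Bnip3 were lower, and Mfn2, Mff, Pink1, Bnip3l and Fundc1 were not called. A gene was called where its p-value in the quasi-likelihood test of edgeR, adjusted by the method of Benjamini and Hochberg over the 12888 genes tested, was under 0.05. All 10 passed the filter on low counts. Of all tested genes 15.5% were called higher and 10.7% lower, so counts of 3 and 2 among 10 genes are to be read against that background. The median log2 fold change of the 10 genes was 0.026, beside 0.0025 for all tested genes. The thresholds stated by the study were an unadjusted p under 0.05 and a fold change above 1.3. They were applied here to the edgeR p-values, whereas the study used DESeq2. By these thresholds in edgeR, Mfn1 and Dnm1l were higher and Fis1 and Bnip3 lower, beside 17.6% and 6.18% of all tested genes. The groups did not overlap for 7 of the 10 genes, beside 65.1% of all tested genes.

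**Figure D1:**
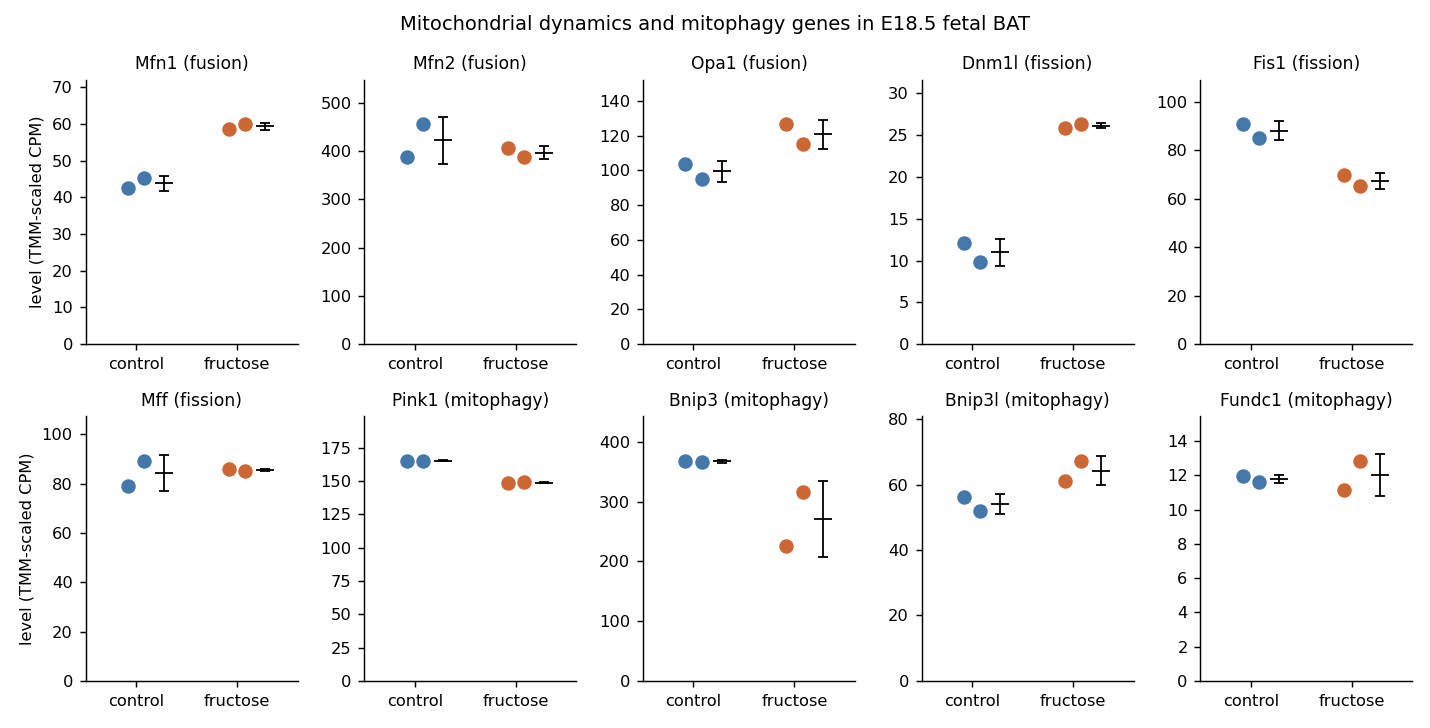
Levels of the 10 genes in TMM-scaled CPM (vertical axis, from 0) in the control and the fructose libraries. Each point is a library, the horizontal bars are group means and the error bars are 1 SD (n = 2). Dnm1l lies at 9.81 and 12.1 CPM in control and at 25.9 and 26.4 CPM in fructose, while the groups overlap for Mfn2, Mff and Fundc1.

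Per kilobase of the longest protein-coding transcript, the genes spanned a wide range of levels, and the order was nearly the same in both groups. Bnip3 stood highest, at 209 ± 1.21 CPM per kilobase in control and 154 ± 36.3 in fructose (SD, n = 2 libraries). Mfn2 followed at 97.1 ± 11.2 and 91.2 ± 3.09, and Fis1 at 92.8 ± 4.21 and 71.1 ± 3.53. Mfn2 and Fis1 did not differ beyond their spread in control, where their libraries overlapped, but lay apart in fructose. Pink1 (69.5 ± 0.163 in control) and Mff (40.3 ± 3.52) came next. Bnip3l (16.6 ± 0.957) and Opa1 (16.0 ± 0.988) overlapped in control and again in fructose (19.7 ± 1.36 and 19.4 ± 1.34). The lowest levels were those of Mfn1 (9.62 ± 0.446 in control), Fundc1 (5.93 ± 0.12) and Dnm1l (2.77 ± 0.414). Dnm1l and Fundc1 exchanged their places, since Dnm1l reached 6.59 ± 0.0823 CPM per kilobase in fructose and Fundc1 stood at 6.05 ± 0.612. The order rests on which transcript was taken as the length of each gene.

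Among the fusion genes, the outer membrane pair moved unequally. Mfn1 (ENSMUSG00000027668, chr3:32529465-32579239, plus strand of mm10, 18 exons) was at 42.4 and 45.3 CPM in control and at 58.7 and 60.0 CPM in fructose. The fructose libraries lay above both control libraries, and the gap was larger than the difference within either group. Its log2 fold change was 0.44 with a standard error of 0.087 (1.35-fold, edgeR adjusted p = 0.0045). The call was kept when any of the 4 libraries was left out, but not with the trends of the fold change with transcript length and GC content removed together (0.21, edgeR adjusted p = 0.15).

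Mfn2 (ENSMUSG00000029020, chr4:147873599-147904704, minus strand, 20 exons), which also tethers mitochondria to the endoplasmic reticulum, was at 387 and 456 CPM in control and at 405 and 386 CPM in fructose. The groups overlapped, with control 2 the highest of the 4 libraries. Its log2 fold change of -0.09 (95% interval -0.30 to 0.11) was not called (edgeR adjusted p = 0.51).

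Opa1 (ENSMUSG00000038084, chr16:29579334-29654884, plus strand, 29 exons), the inner membrane GTPase whose promoter held the NRF1 core, was at 104 and 95.2 CPM in control and 127 and 115 CPM in fructose. The groups did not overlap, and the distance between the nearest libraries of different groups was close to the differences within them. Its log2 fold change of 0.28 had a standard error of 0.087 (1.21-fold, edgeR adjusted p = 0.034). The call was lost without control 2 (0.22, adjusted p = 0.095) or without fructose 1 (0.21, adjusted p = 0.24) and in DESeq2 (adjusted p = 0.065), and the direction turned with both trends removed (-0.22, edgeR adjusted p = 0.17).

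The fission genes held the largest change of the 10 in either direction. Dnm1l (ENSMUSG00000022789, chr16:16312230-16358959, minus strand, 19 exons), which encodes the GTPase that cuts mitochondria and peroxisomes, was counted 230 and 177 times in control and 586 and 646 times in fructose. These counts correspond to 12.1 and 9.81 CPM against 25.9 and 26.4 CPM. The fructose libraries were nearly equal and both stood far above control. The log2 fold change was 1.25 with a standard error of 0.135 (2.38-fold, edgeR adjusted p = 0.0002). It was called higher in 17 of 17 alternative analyses, with a value of 1.11 to 1.41 when a library was left out and of 0.78 (edgeR adjusted p = 0.0068) after removal of both trends. An antisense gene, Gm49521, overlaps exons of Dnm1l and was not analysed here. The treatment of strand in counting is not given in the sources used here, so reads of the 2 genes cannot be told apart.

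Fis1 (ENSMUSG00000019054, chr5:136953275-136966234, plus strand, 5 exons), a small outer membrane adaptor with the shortest transcript of the 10 genes (948 bases), moved the other way. It was at 90.8 and 85.2 CPM in control and 69.7 and 65.0 CPM in fructose. The groups lay apart by more than the difference within each. A log2 fold change of -0.39 was fitted, with a standard error of 0.084 (1.31-fold lower, edgeR adjusted p = 0.0068), and the call was lost without fructose 2 (-0.33, adjusted p = 0.073). With the length trend removed the value was -0.05 (adjusted p = 0.71), and without either trend it turned to 0.09 (adjusted p = 0.49).

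Mff (ENSMUSG00000026150, chr1:82724890-82752394, plus strand, 11 exons), a main receptor of DRP1 on the outer membrane, was at 78.9 and 89.3 CPM in control and at 85.7 and 85.2 CPM in fructose. Both fructose libraries fell between the control libraries. Mff was fitted at a log2 fold change of 0.02 (95% interval -0.17 to 0.21, edgeR adjusted p = 0.88). The antisense-strand gene C430014B12Rik overlaps exons of Mff and was not analysed here.

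**Figure D2:**
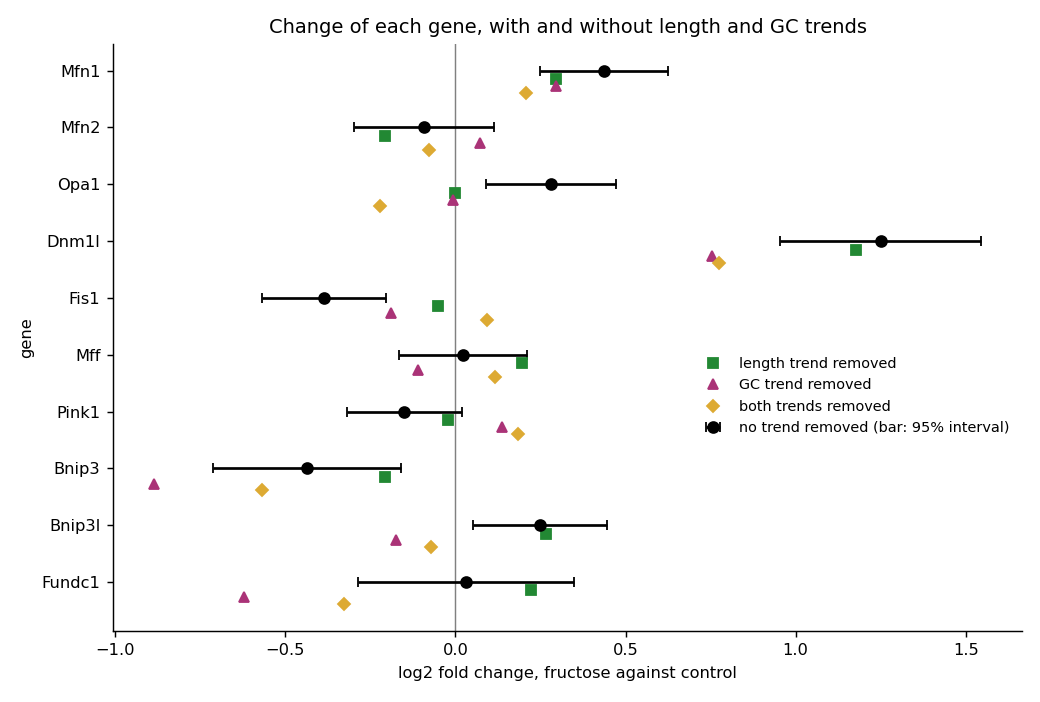
Log2 fold change of each gene, fructose against control (horizontal axis), as fitted by edgeR with its 95% interval (black) and with the trend of length (squares), GC content (triangles) or both (diamonds) removed from each library. Dnm1l stays above 0 under each, at 0.78 with both trends removed, and Bnip3 stays below 0, whereas Opa1 and Fis1 lie on the other side of 0 with both removed.

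Among the mitophagy genes, Bnip3 was called and the others were not. Bnip3 (ENSMUSG00000078566, chr7:138890836-138909519, minus strand, 6 exons), the hypoxia-responsive receptor whose promoter is printed above, was at 369 and 366 CPM in control and at 226 and 316 CPM in fructose. The control libraries were nearly equal, while the fructose libraries differed from each other by more than fructose 2 differed from control. The log2 fold change was -0.44 with a standard error of 0.127 (1.35-fold lower, edgeR adjusted p = 0.025). Without fructose 1 it was -0.21 (adjusted p = 0.26) and without fructose 2 it was -0.70 (adjusted p = 0.0002), and DESeq2 did not call it (adjusted p = 0.18). The call was also lost with the length trend removed (-0.21, edgeR adjusted p = 0.34) but kept with the GC trend removed (-0.88, adjusted p = 0.0023) or both (-0.57, adjusted p = 0.028). The antisense gene Gm45507 overlaps exons of Bnip3 and was not analysed here.

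Bnip3l (ENSMUSG00000022051, chr14:66985239-67008877, minus strand, 7 exons) encodes NIX, the receptor known for clearing mitochondria from maturing red cells. It was at 56.3 and 51.8 CPM in control and 61.1 and 67.4 CPM in fructose. The fructose libraries lay above control, opposite in direction to Bnip3. The log2 fold change of 0.25 (95% interval 0.05 to 0.45) was not called (edgeR adjusted p = 0.062), but was called without control 1 (0.31, adjusted p = 0.022), with scaling by library size only (0.31, adjusted p = 0.034) and with no filter on low counts (0.25, adjusted p = 0.0499). The direction turned with the GC trend removed (-0.17, edgeR adjusted p = 0.17) and with both trends removed (-0.070, adjusted p = 0.62). Reads of a pseudogene copy, Bnip3l-ps, may be shared with Bnip3l, since the treatment of reads matching several genes is not given in the sources used here.

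Pink1 (ENSMUSG00000028756, chr4:138313409-138326307, minus strand, 8 exons), the kinase that starts the ubiquitin route, was at 165 and 165 CPM in control and 149 and 149 CPM in fructose. The libraries of each group were nearly identical, and the groups did not overlap. The log2 fold change of -0.15 (95% interval -0.32 to 0.02) was not called (edgeR adjusted p = 0.18). Fundc1 (ENSMUSG00000025040, chrX:17556564-17572325, minus strand, 5 exons), another hypoxia-linked receptor and the only gene of the 10 on the X chromosome, was at 11.9 and 11.6 CPM in control and 11.1 and 12.9 CPM in fructose. Its control libraries fell between the fructose libraries, and the log2 fold change of 0.03 (95% interval -0.29 to 0.35) was not called (edgeR adjusted p = 0.90). Of the 413 X-linked genes tested 23.5% were called higher and 6.30% lower, beside 15.2% and 10.8% of 12453 autosomal genes.

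Next, partners with related or opposite tasks were set against each other within each library, as ratios of the level per kilobase. Mfn2 exceeded Mfn1 by 9.60- and 10.6-fold in control and by 7.25- and 6.77-fold in fructose. The ratio of Opa1 to Dnm1l was 5.45 and 6.17 in the control libraries but 3.12 and 2.78 in the fructose libraries. For Bnip3 to Bnip3l it was 12.2 and 13.1 in control, against 6.87 and 8.71 in fructose. Mff stood at 0.395 and 0.476 of Fis1 in control and at 0.558 and 0.595 in fructose. For all 4 ratios the groups did not overlap, but each pair held a gene already called above. How often other pairs of genes lie apart was not computed. On the log2 scale the differences, fructose minus control, were 0.52 for Mfn1 to Mfn2, -0.98 for Opa1 to Dnm1l, -0.71 for Bnip3 to Bnip3l and 0.41 for Mff to Fis1. With 2 libraries against 2, the exact two-sided permutation test cannot go below p = 0.333, which was its value for each ratio (0.333 after adjustment over the 4 ratios). With both trends removed, the difference was 0.28, -1.01, -0.51 and 0.025 in the same order.

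**Figure D3:**
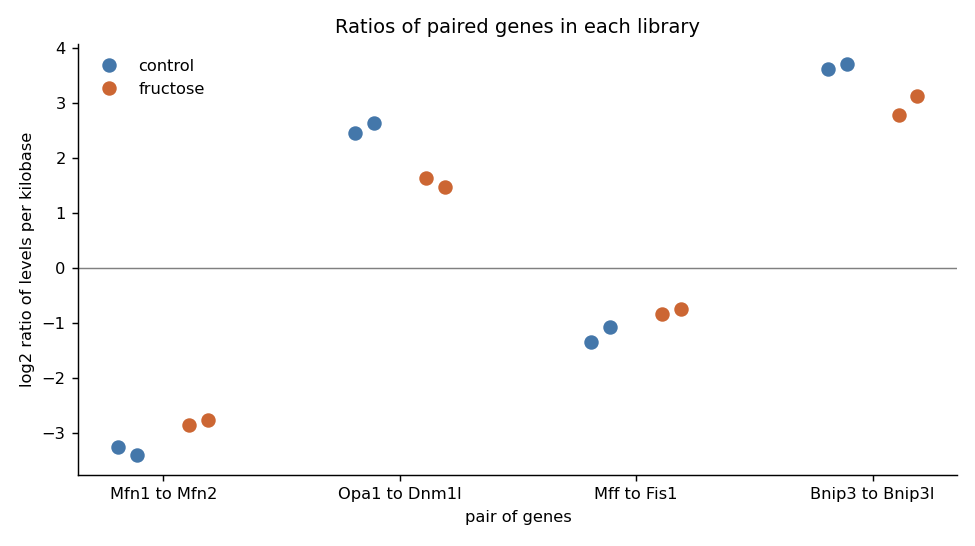
Log2 ratio of the levels per kilobase (vertical axis) of 4 pairs of genes in each control and fructose library; each point is a library. The groups lie apart for each pair, with the widest difference for Opa1 to Dnm1l (-0.98) and the narrowest for Mff to Fis1 (0.41).

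The other genes of mitochondrial dynamics were examined as lists by role, and their counts stand beside the 15.5% of all tested genes called higher and the 10.7% called lower. Among 12 fusion partners, 2 were higher and 2 lower, with a median log2 fold change of -0.10 that turned to 0.12 with both trends removed. Yme1l1, the inner membrane protease that processes OPA1, rose from 11.6 and 9.48 CPM to 21.8 and 20.4 CPM (95% interval of the log2 fold change 0.69 to 1.31, edgeR adjusted p = 0.0008). Slc25a46, an outer membrane protein of the fusion and fission machinery, rose by 0.87 (edgeR adjusted p = 0.0007). The prohibitins Phb and Phb2, inner membrane scaffolds that stabilise OPA1, fell by 0.28 and 0.33 (edgeR adjusted p = 0.049 and 0.014). Of 12 fission partners tested, Spire1, an actin nucleator, rose by 0.59 (edgeR adjusted p = 0.0058) and Mtfp1, an inner membrane fission protein, fell by 0.44 (edgeR adjusted p = 0.0066), while the other 10 were not called (median of the 12 -0.12, and 0.088 with both trends removed). A further gene of that list, Gdap1, had 0 counts in all libraries. Of 10 genes of the MICOS complex and its partners, which shape cristae and their contact with the outer membrane, 4 were lower and none higher, beside 10.7% and 15.5% of all tested genes. Their median was -0.22, but -0.011 with the length trend removed, where 1 was lower and 1 higher, and -0.039 with both removed. Of all 12888 tested genes, 671 were called lower and 1163 higher with the length trend removed. The 4 lower genes were Chchd6 (-0.54), Mtx1 (-0.41), Samm50 (-0.34) and Micos13 (-0.27), of which Samm50 was also called with both trends removed. Under that setting Miga1 (-0.48) was the only fusion partner called and Pgam5 (0.40) the only fission partner called.

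In the ubiquitin arm of mitophagy, 6 of 13 tested genes were higher and none lower, beside 15.5% and 10.7% of all tested genes. The median was 0.25, but 0.095 with the length trend removed, where 3 were higher and 3 lower, and 0.11 with both removed. With the length trend removed, 1163 of all 12888 tested genes were called higher and 671 lower. Tax1bp1 and Nbr1, which link tagged cargo to the autophagosome, rose by 0.96 and 0.25 (edgeR adjusted p = 0.0004 and 0.042), and the kinase Tbk1 rose by 0.55 (adjusted p = 0.023). The deubiquitinases Usp15 and Usp8, which remove ubiquitin from tagged proteins, rose by 1.08 and 0.35, and Vps13d, a lipid transfer protein, by 0.26. DESeq2 called 2 of the 13 higher, beside 1280 of the 16360 genes it fitted. With both trends removed Tax1bp1 was higher (0.66, edgeR adjusted p = 0.0073) and Vps13d (-0.43) and Fbxo7 (-0.51) were lower. Calcoco2 had 0 counts in all libraries.

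Of 6 genes listed as other mitophagy receptors, 5 were lower, beside 10.7% of all tested genes. The median was -0.34, but -0.11 with the GC trend removed and -0.15 with both removed. Fkbp8 fell by 0.39, Nlrx1 by 0.37 and Fundc2, a relative of Fundc1, by 0.30, with Phb2 as given above. Bcl2l1, best known as an inhibitor of apoptosis and not as a mitophagy receptor, fell by 0.35, so the 5 lower genes are not all receptors. With both trends removed 2 of the 6 were lower, Fundc2 (-0.94) and Bcl2l13 (-0.43).

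Of 33 core autophagy genes, 4 were higher and 7 lower, with a median of -0.08. These counts are 12.1% and 21.2% of the list, beside 15.5% and 10.7% of all tested genes. The higher genes were Rb1cc1, Atg4c, Atg14 and Ulk2, which act in the initiation of autophagosomes or, for Atg4c, in the cleavage of LC3 proteins. Rb1cc1 rose from 2.48 and 1.66 CPM to 6.37 and 6.94 CPM (log2 fold change 1.68, standard error 0.247, edgeR adjusted p = 0.001). The lower genes included 3 of the LC3 and GABARAP proteins that mitophagy receptors bind. Map1lc3a fell from 422 and 368 CPM to 229 and 236 CPM (log2 fold change -0.76, edgeR adjusted p = 0.0003), Gabarap by 0.30 and Map1lc3b by 0.26. The groups did not overlap for any of the 3, beside 65.1% of all tested genes. Gabarapl1 (0.01) and Gabarapl2 (-0.13), of the same proteins, were not called. With both trends removed none of the 3 was called. Map1lc3a was then at -0.22 (edgeR adjusted p = 0.17), Map1lc3b at -0.010 and Gabarap at 0.063. The other lower genes were Atg4d (-0.39), Atg101 (-0.33) and the transcription factors of lysosome genes Tfeb (-0.36) and Tfe3 (-0.27). With both trends removed, Atg14, Wipi1 and Gabarapl1 were higher (0.56, 0.52 and 0.35) and Atg4d was lower (-0.51).

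Of 5 genes tested for mitochondrial transport along microtubules, 2 were higher (40%) and none lower, beside 15.5% and 10.7% of all tested genes. The motor Kif5b rose by 1.25 (edgeR adjusted p = 0.0004) and its adaptor Trak2 by 0.43 (adjusted p = 0.043). Of 19 HIF-1 targets tested, 2 were higher and 2 lower, or 10.5% each way, beside 15.5% and 10.7% of all tested genes. The targets were listed because Bnip3 and Bnip3l respond to hypoxia. Vegfa and Pdk1 rose (0.60 and 0.29) and Aldoa and Ddit4 fell (-0.33 and -0.27). The median was -0.07 (0.13 with both trends removed). With both trends removed, Kif5b (0.59) and Vegfa (0.68) were called higher and Mxi1 (-0.50) lower. Of the 19 targets, 6 were fitted above 0 and 13 below 0, beside a median of 0.0025 for all tested genes. Bnip3 was at -0.44 and Bnip3l at 0.25, in opposite directions. A link of Bnip3 to the hypoxia response was not tested.

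Measures of mitochondrial content did not move together. Of 9 nuclear genes that serve as measures of mitochondrial mass, 3 were lower and none higher, beside 10.7% and 15.5% of all tested genes. The lower genes were Tomm20 (-0.32), Tomm40 and Vdac2 (-0.26 each). The median was -0.23, but -0.017 with the length trend and -0.015 with both trends removed. Tomm20 alone was called with both trends removed (-0.62). Genes encoded in the mitochondrial genome took 5.89% and 6.49% of all counts in the control libraries but 10.8% and 11.2% in the fructose libraries, values for which no test was run. Ppargc1a, the coactivator that drives mitochondrial biogenesis, was at 6.91 and 7.49 CPM in control and 14.2 and 17.9 CPM in fructose (log2 fold change 1.16, edgeR adjusted p = 0.0008), and at 0.50 on the log2 scale without a call once both trends were removed (adjusted p = 0.077). The adipocyte and muscle marker sums given above moved with the groups as well, and their part in these values was not tested.

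**Figure D4:**
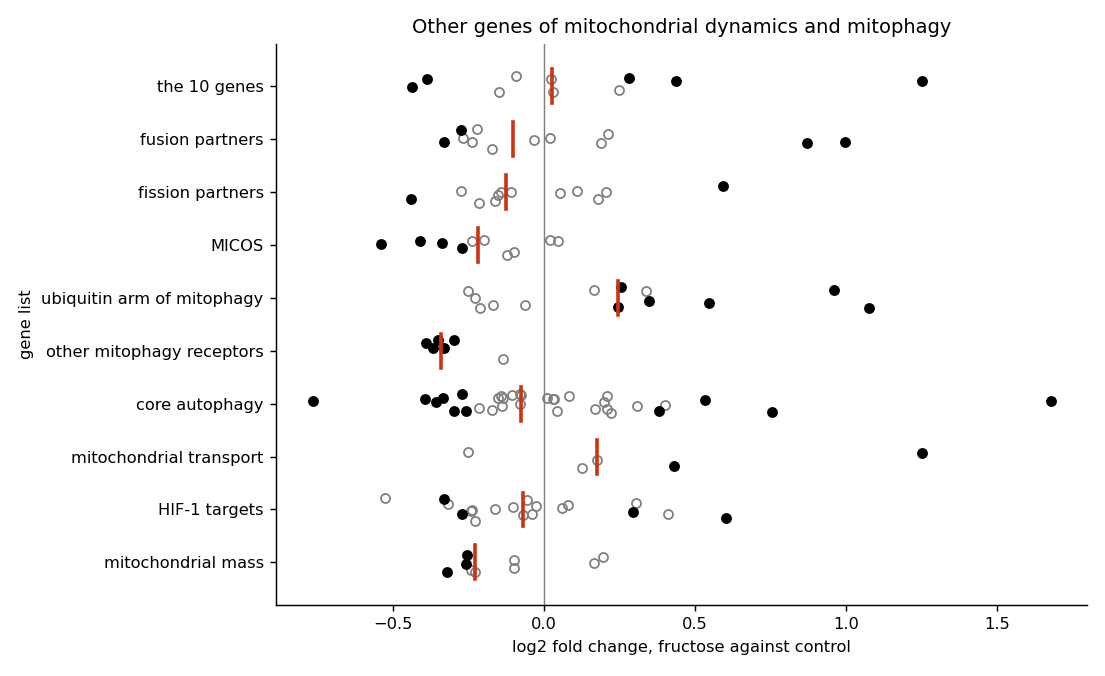
Log2 fold change, fructose against control (horizontal axis), of each tested gene in the 10 genes described and in 9 lists of related genes (vertical axis). Filled points passed an adjusted p-value under 0.05 in edgeR, open points did not, and red bars are list medians, from -0.34 for other mitophagy receptors to 0.25 for the ubiquitin arm; vertical scatter within a list only separates points.

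Transcript length and base composition differed among the genes and went with the fold change. Over all tested genes the log2 fold change had a Spearman's rho of 0.52 with transcript length and of -0.53 with GC content. Over the 10 genes described, which share the same 4 libraries, the rho was 0.72 with length and -0.44 with GC content. The called genes that were higher had transcripts of 3966 (Dnm1l), 4562 (Mfn1) and 6230 bases (Opa1), and those that were lower had 948 (Fis1) and 1756 bases (Bnip3). Mfn2, at 4341 bases, was not called. With both trends removed, 1 of the 10 genes was called higher (Dnm1l) and 1 lower (Bnip3), beside 4.73% and 2.74% of all tested genes.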

How the data were processed

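Per the submitters' processing notes and the study's methods, the authors filtered reads with fastp, mapped them to mm10 with Bowtie2 2.0.0.5 and TopHat2 2.0.0, assembled transcripts with StringTie 2.2.0, merged them with Cuffmerge and deposited raw counts per gene. The counting tool, its treatment of strand and of multiply mapped reads, and the annotation release are not given in the sources used here. Symbols, coordinates and transcripts came from GENCODE vM21 (GRCm38), which lacked 43 of 22298 identifiers. Genes kept by filterByExpr (12888) were tested in edgeR 4.0.16 (R 4.3.3) by the quasi-likelihood test with TMM factors, two-sided, no covariate and Benjamini-Hochberg adjustment. The study used DESeq2, run here (1.42.0) as an alternative. Totals per library were 19224529 and 18542897 (control) and 22461298 and 23645147 (fructose) counts. Other alternatives were other size factors and filters, the replicate number as a block, lowess trends of length or GC content (span 0.3) removed as offsets, and each library left out. All 10 genes are named, with genes of the related lists that passed the test, at most 5 by adjusted p and 3 by level per list. The members and lists were chosen with earlier results of these data known. Genes named beyond that rule (such as Nbr1, Tfeb, Tfe3 and those called only with trends removed) were chosen after their values were seen. A gene of the related lists is not reported here. Tested on simulated counts with 200 of 12888 genes changed 2-fold, edgeR recovered 78% and called 6 unchanged genes. These counts held no trend with length or GC content and no smaller changes, so they give no error rate for the calls above.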

Additional observations from a re-analysis of the deposited data

How the results depend on the processing

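The main calls were 3 genes higher and 2 lower. Over genes, the deviations of libraries with the same replicate number had a correlation of -0.027. With 2 libraries per group this value cannot show whether the libraries were paired. The replicate block alone gave 3 higher and 2 lower as well. Fewer genes were called lower with DESeq2 (1), library size only (1), the length trend removed (0), both trends removed (1), the block with the length trend (0) or both trends (1), and without either fructose library (1). The range over libraries left out was 1 to 2. Called higher was 1 gene with both trends removed and with the block plus the length trend (1), the GC trend (1) or both (1). It was 2 with DESeq2, the length trend or the GC trend removed, and without control 2 or fructose 1, and 4 with library size only, no filter or without control 1. The median log2 fold change of 0.026 became 0.088 with library size only, 0.097 with the length trend and -0.057 with the GC trend removed, 0.097 and -0.058 when the block was added to these, and -0.013 to 0.077 with a library left out. Turned directions were as follows. With the GC trend removed, without and with the block, values were 0.073 and 0.076 (Mfn2), -0.0058 and -0.0084 (Opa1), -0.11 and -0.11 (Mff), 0.14 and 0.14 (Pink1), -0.17 and -0.17 (Bnip3l) and -0.62 and -0.62 (Fundc1, called lower, edgeR adjusted p = 0.016 and 0.039). With the length trend removed Opa1 was at -0.0019 and -0.0031. With both removed, values were -0.22 and -0.23 (Opa1), 0.093 and 0.094 (Fis1), 0.18 and 0.18 (Pink1), -0.070 and -0.071 (Bnip3l) and -0.33 and -0.33 (Fundc1). With a library left out, Mfn2 ranged from -0.21 to 0.031, Mff from -0.068 to 0.11 and Fundc1 from -0.075 to 0.13. The cause was not tested. The 3380 genes called among all those tested became 1834 with the length trend, 1916 with the GC trend and 963 with both removed, 1231, 1116 and 451 with the block added, and 1692 without fructose 2. The split of 2001 higher and 1379 lower became 2242 and 859 with library size only. With 2 libraries per group, intervals were wide, and a call that was missed does not show that levels were equal. A library left alone in its group was assumed to vary like the other group.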
